A study of Mus musculus with 2 samples.

Results

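Integrins and laminins are the receptor and ligand chains through which cells hold on to basement membrane, the thin sheet of matrix under epithelia and around vessels. The genes described here were the protein-coding genes whose mouse symbol is Itga or Itgb followed by a number or by L, M, V, E, D or X, or Lama, Lamb or Lamc followed by a number. Symbols of integrin-binding proteins and of integrin-like genes were left out. The rule found 37 genes among 21474 protein-coding genes and 42462 annotated Ensembl genes: 18 integrin alpha subunits, 8 integrin beta subunits, 5 laminin alpha chains, 3 laminin beta chains and 3 laminin gamma chains.

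The tissue was mouse hindbrain (strain B6NCrl, embryonic day 11.5), sequenced as total RNA. There was 1 group, with no second genotype, treatment or age, and it held 2 libraries labelled as separate biological replicates of the same donor label. Pool 1 combined hindbrains of 109 embryos and pool 2 those of 88, both of male and female embryos, so each value averages over many animals and over all cells of the dissected tissue. The input per library was 10 ng of RNA above 200 nt in size, and ERCC synthetic RNAs had been added. Levels are in TPM, a gene's share of a library's transcripts after division by transcript length, given as the pool 1 value and then the pool 2 value, or as mean ± SD (n = 2). With 1 library per pool no test between groups was possible and no p-value is given.

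Each integrin is a heterodimer of an alpha and a beta subunit, and most alpha subunits have few possible partners, so the transcripts of both chains are needed for a receptor. The beta1 subunit takes the widest range of partners, while the alphav subunit is the alpha chain with the widest range of beta partners. Laminins are cross-shaped trimers of an alpha, a beta and a gamma chain, and the alpha chain carries the main binding sites for integrins and dystroglycan. In the embryonic hindbrain, the endfeet of neuroepithelial cells and radial glia rest on a laminin-rich basement membrane below the meninges, and invading vessels bring basement membranes of their own.

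The libraries held 45340440 and 41261544 expected counts, of which the 37 genes took 46308 and 37864, or 0.102% and 0.0918%. The tissue label was checked against its markers: all 8 neural progenitor markers and all 8 neuron markers reached a TPM of 1 in both pools, with summed levels of 2441 and 2211 TPM for progenitors and 1854 and 1638 TPM for neurons. The tissue also held markers of cells known for high integrin or laminin expression. All 10 endothelial markers were detected (139 and 122 TPM summed, led by Esam and Cldn5), as were all 10 macrophage markers (93.5 and 91.7 TPM) and all 10 markers of mesenchyme and meninges (628 and 604 TPM, led by Col3a1). In bulk tissue, fewer cells of a type and less RNA per cell cannot be told apart, and which of these cells expressed a given chain was not tested.

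A gene was counted as detected where both pools gave it 1 TPM or more. By this line 21 of the 37 genes (56.8%) were detected, against 59.4% of all protein-coding genes, a share near the background. The detected genes were 10 of 18 integrin alpha subunits, 3 of 8 integrin beta subunits and 8 of 11 laminin chains. A further 4 integrin genes passed the line in 1 pool only, 12 genes were below it in both pools, and Itgax and Itgad had 0 reads in both. The median gene of the set had a mean level of 2.79 TPM, against 3.85 TPM over all protein-coding genes. Summed TPM was 284 and 239 for integrins and 86.6 and 81.5 for laminins.

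**Figure D1:**
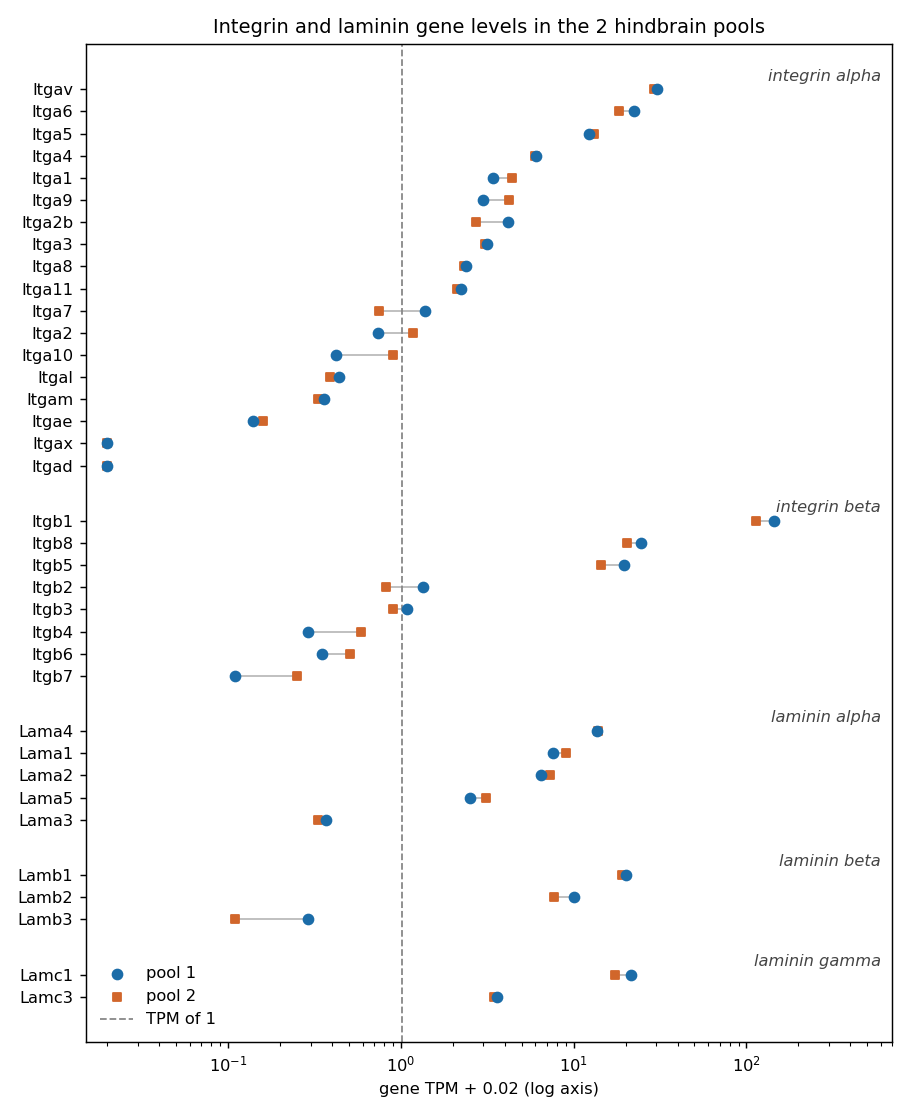
Gene level of 36 of the 37 integrin and laminin genes in pool 1 (circles) and pool 2 (squares), as TPM + 0.02 on a log axis, grouped by family and ordered by mean; the dashed line marks a TPM of 1. Itgb1 stands alone at 145 and 113 TPM, the next genes lie near 20 to 30 TPM, and Itgax and Itgad lie at 0.

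Among the beta subunits, Itgb1 (chr8:128685654-128733200, GRCm38) had 145 TPM in pool 1 and 113 TPM in pool 2, the highest level of any integrin or laminin gene in both libraries. It encodes beta1, the common partner of 12 of the alpha subunits, and it made up 75.4% and 75.0% of all beta-subunit TPM. Itgb8, which encodes the alphav partner known for activating TGF-beta around developing brain vessels, had 24.6 and 20.3 TPM. Itgb1 lay 2.46 ± 0.06 (SD, n = 2) above Itgb8 on the log2(TPM + 1) scale, a gap far wider than the spread between the pools. Itgb5, another alphav partner that binds vitronectin, followed at 19.5 and 14.4 TPM.

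The other 5 beta subunits were near or below the detection line. Itgb2, the beta chain of leukocytes, had 1.33 and 0.800 TPM, and Itgb3, the partner of the platelet subunit alphaIIb and of alphav, had 1.06 and 0.880 TPM. Their ranges overlapped, so the order of these 2 genes was not resolved. Itgb4, the hemidesmosome subunit of basal epithelia, had 0.270 and 0.570 TPM. Itgb6, an epithelial partner of alphav, had 0.330 and 0.490 TPM, and Itgb7, a lymphocyte subunit, had 0.0900 and 0.230 TPM.

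The promoter windows of the highest gene, Itgb1, and of Itgax, a gene with no read, show the difference in CpG content between the ends of the set. The lines give the 150 bases before the annotated start in the RefSeq table for GRCm38.p6, at chr8:128685504-128685653 for Itgb1 and chr7:128129400-128129549 for Itgax, both on the plus strand, 5′ to 3′, with each CG dinucleotide in capitals.
Itgb1 promoter: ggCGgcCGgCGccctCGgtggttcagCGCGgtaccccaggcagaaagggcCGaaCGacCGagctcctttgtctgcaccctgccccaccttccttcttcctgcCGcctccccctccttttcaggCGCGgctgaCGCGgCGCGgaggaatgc
Itgax promoter: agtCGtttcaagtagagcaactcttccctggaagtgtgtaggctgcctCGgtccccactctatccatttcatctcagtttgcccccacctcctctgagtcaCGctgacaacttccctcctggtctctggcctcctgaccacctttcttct
These 150 bases hold 16 CG dinucleotides for Itgb1 and 3 for Itgax. RefSeq windows of 300 nt (250 bases before to 50 after the start) were matched for 23 of the 37 genes. At least 10 CG were found in 13 of 16 detected genes (81.2%) and 2 of 7 undetected ones (28.6%). The same line was passed by 84.7% of all detected and 19.4% of all undetected protein-coding genes, so the integrin and laminin genes lay close to the background in both classes. Among detected genes the exceptions were Lamb2 with 4, Lama2 with 1 and Itga2b with 6. Some windows, such as those of Lama2, Itga9 and Lamb3, lay inside the gene as annotated in GENCODE vM21. For Lama2, on the minus strand, the window was chr10:27616893-27617192 and the gene chr10:26980036-27619758. Such a count may not describe the promoter at the annotated gene start.

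Among the alpha subunits that bind the RGD motif of fibronectin, vitronectin and related ligands, Itgav (chr2:83724397-83806916) was highest at 30.3 and 29.3 TPM. Itga5, which encodes the alpha chain of the classical fibronectin receptor, had 12.3 and 13.1 TPM. Itga8, whose product binds nephronectin, had 2.36 and 2.31 TPM. Itga2b, the alphaIIb subunit of platelets and megakaryocytes, had 4.15 and 2.70 TPM, of which 1.88 and 1.61 TPM lay on full-length coding transcripts. This stood beside a megakaryocyte marker list of which 5 of 8 genes were detected and whose sum was 83.5 and 85.6 TPM (range 0.635 to 55.6 TPM, led by Pf4 and Ppbp, none at 0). The part of that cell type in the Itga2b level was not tested.

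Among the laminin-binding alpha subunits, Itga6 had 22.4 and 18.4 TPM, Itga3 had 3.14 and 3.05 TPM and Itga7 had 1.36 and 0.730 TPM. The Itga6 product is the laminin receptor of the neuroepithelium, alpha3 serves epithelia and migrating neurons, and alpha7 is best known from skeletal muscle. Itga6 was thus by far the most abundant of the laminin-binding class, and the ranges of these 3 genes did not overlap.

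Itga4, whose product binds Vcam1 and fibronectin, had 6.07 and 5.92 TPM. Itga9, the related subunit that binds tenascin and osteopontin, had 2.98 and 4.22 TPM. Both were detected in both libraries.

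Of the collagen-binding alpha subunits, Itga1 had 3.38 and 4.37 TPM and Itga11 had 2.22 and 2.09 TPM. Itga2 had 0.720 and 1.15 TPM, and Itga10, a subunit known from cartilage, had 0.400 and 0.880 TPM. The class summed to 6.72 and 8.49 TPM, less than Itga5 alone in each pool.

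The leukocyte subunits were the lowest class. Itgal had 0.420 and 0.370 TPM, Itgam 0.340 and 0.310 TPM, and Itgae 0.120 and 0.140 TPM, while Itgax and Itgad had none. For Itgax, 3 reads would have stood for 0.0259 and 0.0269 TPM, which is the level that 0 reads allow, counting error only. Macrophage markers were present in the same libraries (10 of 10 detected, 1.38 to 26.8 TPM, none at 0), whereas of 6 neutrophil and lymphoid markers 2 were detected, and Cd3e and Ly6g were among those at 0.

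Down the order of alpha subunits by gene TPM, the ranges of neighbours did not overlap among Itgav, Itga6, Itga5, Itga4 and Itga1. The ranges of Itga1 and Itga9 overlapped, as did those of Itga9 and Itga2b and those of Itga2b and Itga3, so these neighbours were not ordered. The gap of Itgav over Itga6 was 0.53 ± 0.16 on the log2(TPM + 1) scale (SD, n = 2).

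That order depended on which transcript models were counted. A gene's TPM adds all of its annotated transcripts, and a short model reaches a high TPM from few reads. For Itgav the leading model was a partial coding model of 463 nt, with 17.2 and 18.6 TPM from 184 and 192 reads. It held 56.7% and 63.6% of the gene's TPM, while the 2 full-length coding models held 35.8% and 28.8% of the TPM but 89.6% and 85.9% of the reads. Counting full-length coding transcripts only, an alternative added after these values were seen, Itga5 became the highest alpha subunit at 12.3 and 13.1 TPM, ahead of Itgav at 10.8 and 8.43 TPM, and the ranges of these genes did not overlap. Itga5 is annotated with a sole transcript, so its level could not fall by that measure. Itga6 had 9.90 and 8.09 TPM by that measure, and its range overlapped that of Itgav. A non-coding model of Itga6, of 2721 nt, held 47.3% and 41.2% of the gene's TPM.

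Of the 21 detected genes, 4 had less than 50% of their TPM on full-length coding transcripts: Itga6, Itgav, Lama2 and Lama5. This was 19.0% of the detected set, against 12.0% of detected protein-coding genes (1533 of 12766). The median share was 91.9% for the 13 detected integrins and 62.9% for the 8 detected laminins, against 96.2% for all detected protein-coding genes. Itgb1 kept 99.3% and 99.5% of its TPM on its full-length coding model, and Itga11 kept all of its TPM. Itga5 and Itga1 are annotated with a sole transcript, so they kept all of theirs by construction.

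**Figure D2:**
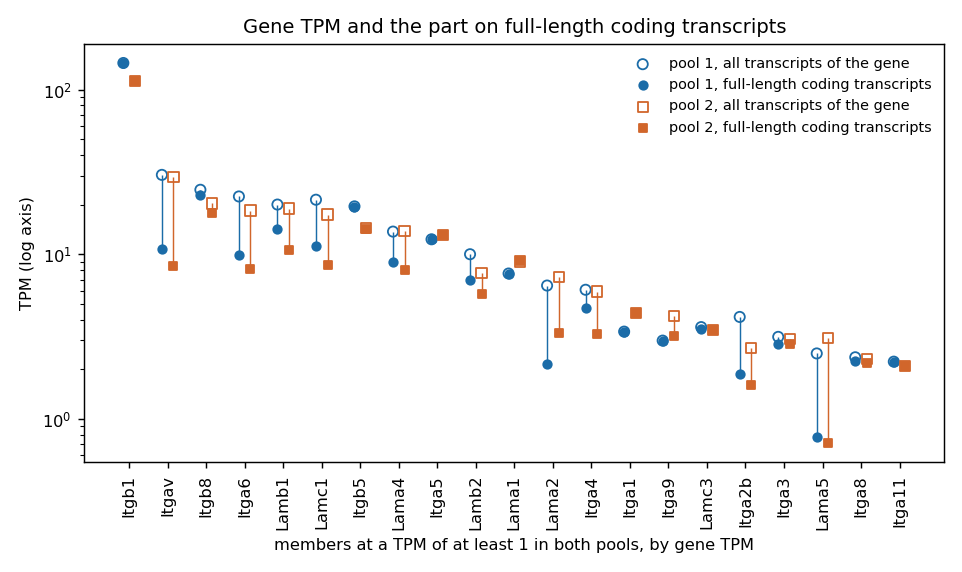
TPM on a log axis for the 21 detected genes, ordered by gene TPM; open symbols are the gene's total, filled symbols the TPM on full-length coding transcripts, circles pool 1 and squares pool 2. The drop is long for Itgav (30.3 against 10.8 TPM in pool 1), Itga6, Lama2 and Lama5 and invisible for Itgb1 and Itga5.

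The cytoplasmic tails of alpha6 and alpha3 are each made in an A and a B form through an alternative exon near the end of the message. The coding stretches are shown because the forms differ in sequence here and were counted separately. Letters are from GENCODE vM21 transcripts on GRCm38, 5′ to 3′ on the coding strand, and capitals mark the codons of the membrane-proximal motif named GFFKR. The A form of Itga6 uses an exon of 130 nt, whose coding part lies at chr2:71853534-71853638 on the plus strand. The B form skips it and codes from the last exon, at chr2:71855854-71856012. For Itga3, on the minus strand, the A exon of 142 nt has its coding part at chr11:95046483-95046590 and the B stretch lies at chr11:95045611-95045763.
Itga6 A form: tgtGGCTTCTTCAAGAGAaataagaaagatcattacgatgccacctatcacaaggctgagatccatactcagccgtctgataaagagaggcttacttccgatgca
Itga6 B form: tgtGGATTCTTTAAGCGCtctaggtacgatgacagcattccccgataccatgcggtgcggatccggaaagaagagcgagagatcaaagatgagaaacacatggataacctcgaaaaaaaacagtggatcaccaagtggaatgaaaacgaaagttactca
Itga3 A form: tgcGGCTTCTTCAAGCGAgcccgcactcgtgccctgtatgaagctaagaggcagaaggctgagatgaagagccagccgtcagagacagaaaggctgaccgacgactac
Itga3 B form: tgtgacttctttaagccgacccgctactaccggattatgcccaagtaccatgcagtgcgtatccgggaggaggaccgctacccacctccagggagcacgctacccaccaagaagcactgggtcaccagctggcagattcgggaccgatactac
The motif was found from the 4th base in both Itga6 stretches and in the A stretch of Itga3, and was not found in the B stretch of Itga3. The A and B stretches of Itga6 code 105 and 159 nt, and those of Itga3 108 and 153 nt.

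Both forms of Itga6 were present. The A transcript had 5.29 and 5.35 TPM and the B transcript 4.61 and 2.74 TPM, so A was 53.4% and 66.1% of their sum (59.8 ± 9.0%, SD, n = 2). The deposited intervals of A and B overlapped in both pools, and whether the forms differed in level was not tested. For Itga3 the A transcript had 1.98 and 2.10 TPM and the B transcript 0.750 and 0.300 TPM, so A was 72.5% and 87.5% of their sum. Another full-length coding model of Itga3, which also holds the A exon, had 0.120 and 0.440 TPM, and with it the A share was 73.7% and 89.4%. The intervals of the shown A and B transcripts overlapped in both pools too, by a narrow margin, with 277 and 283 reads for A and 101 and 39.2 reads for B.

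**Figure D3:**
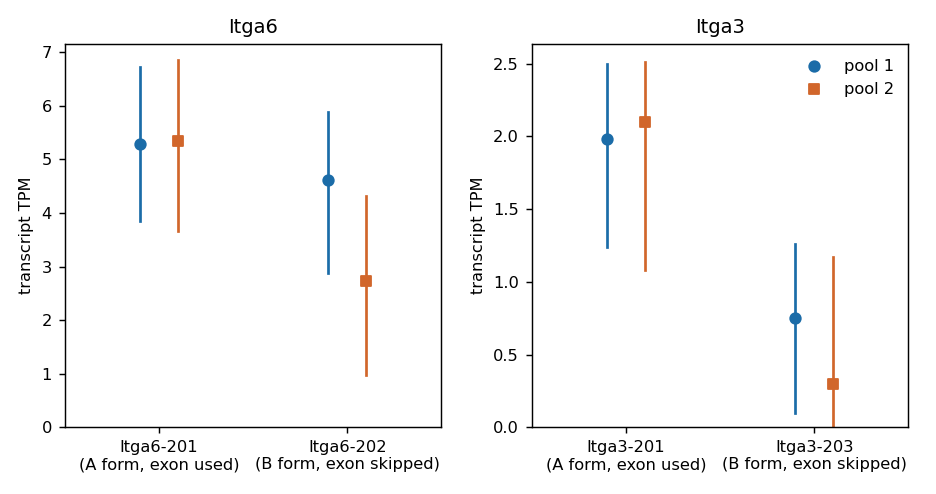
Transcript TPM of the A and B tail forms of Itga6 (left) and Itga3 (right) in pool 1 (circles) and pool 2 (squares), with the deposited interval, whose level is not stated, as a line. The A point is above the B point in both pools for both genes, and the lines of A and B overlap.

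Of the laminin alpha chains, Lama4 (chr10:38965515-39110188), the chain of vessel and mesenchymal basement membranes, had 13.7 and 13.8 TPM. Lama1, the chain of early embryonic and pial basement membranes, had 7.62 and 9.02 TPM. Lama2, the chain of muscle, Schwann cell and meningeal basement membranes, had 6.44 and 7.27 TPM. Lama5, the widespread epithelial and vascular chain, had 2.49 and 3.08 TPM, and Lama3, the epidermal chain, had 0.350 and 0.310 TPM. None of these ranges overlapped, and the gap of Lama4 over Lama1 was 0.67 ± 0.15 (log2, SD, n = 2).

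On full-length coding transcripts the alpha chains stood differently. Lama1, annotated with a sole transcript, kept its 7.62 and 9.02 TPM, whereas Lama4 had 8.94 and 7.97 TPM, so the order of Lama4 and Lama1 turned between the pools. Lama2 had 2.14 and 3.32 TPM by this measure. Lama5 had 0.770 and 0.710 TPM, below the detection line in both pools, although its full-length model held 256 of 277 reads in pool 1 and 226 of 260.0 in pool 2. The other 3 models of Lama5 were between 451 and 734 nt long.

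Among the beta and gamma chains, Lamb1 had 20.0 and 18.9 TPM and Lamc1 21.4 and 17.4 TPM, or 14.3 and 10.6 TPM for Lamb1 and 11.2 and 8.61 TPM for Lamc1 on full-length coding transcripts. These encode the beta and gamma chains of most laminins of the early embryo. Lamb2, the beta chain of vascular, synaptic and kidney basement membranes, had 9.98 and 7.64 TPM. Lamc3, a gamma chain known from the cerebral cortex surface and retina, had 3.60 and 3.45 TPM. Lamb1 exceeded Lamb2 by 1.07 ± 0.19 and Lamc1 exceeded Lamc3 by 2.17 ± 0.16 (log2, SD, n = 2).

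Lamb3, a beta chain of epidermal basement membrane, had 0.270 and 0.0900 TPM, below the detection line in both pools like Lama3. Markers of surface and otic epithelium were present in the same libraries (8 of 8 detected, 166 and 109 TPM summed, led by Oc90 at 105 and 47.6 TPM, with Krt5 lowest at 1.40 and 1.25 TPM). Itga2 and Itga1 lie 20996 bp apart on chromosome 13, at mean levels of 0.935 and 3.88 TPM.

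Chain levels were then set side by side for the known combinations. Of 24 known integrin pairs, 11 had both chains detected, and in 9 of these the alpha subunit was the lower chain. All 9 are pairs with beta1, and Itgb1 was the highest gene of the set, so this count only restates the Itgb1 level. The alpha partners of beta1 summed to 87.7 and 85.5 TPM, against 145 and 113 TPM for Itgb1. Beta subunits other than beta1 that pair with alphav summed to 45.5 and 36.1 TPM, against 30.3 and 29.3 TPM for Itgav. By gene TPM, Itgb8 was the lower chain of alphav-beta8 and Itgb5 that of alphav-beta5. On full-length coding transcripts Itgav, at 10.8 and 8.43 TPM, was the lower chain of both.

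Of 14 laminin trimers, 10 had all chains detected, and by the mean of the pools the alpha chain was the lowest in 8 of these. The trimers share chains, so this count restates the levels of a few chains. In pool 2 alone it was the lowest in 7, since Lama1 at 9.02 TPM exceeded Lamb2 at 7.64 TPM there. The trimer of Lama1, Lamb1 and Lamc1 was bounded by Lama1 at 7.62 and 9.02 TPM. The trimer of Lama4, Lamb1 and Lamc1 was bounded by Lama4 at 13.7 and 13.8 TPM, and that of Lama5, Lamb1 and Lamc1 by Lama5 at 2.49 and 3.08 TPM. On full-length coding transcripts Lama5 bounded its trimers at 0.770 and 0.710 TPM, below the detection line. Summed over each family, alpha chains had 30.6 and 33.5 TPM, beta chains 30.2 and 26.6 TPM and gamma chains 25.8 and 21.4 TPM. RNA levels do not show how much of each trimer was assembled.

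The 2 pools were next compared as the log2 ratio of TPM + 1 in pool 1 over pool 2, relative to the median gene (0.11, or 0.19 for reads), for the 23 genes averaging 1 TPM or more. None was more than 1.5-fold apart, against 3.15% of protein-coding genes (1.07% higher and 2.08% lower in pool 1). Ratios ran from -0.50 for Itga9 to 0.37 for Itga2b, with 9 genes above and 14 below 0 and a median of -0.06, against 0.01 for all protein-coding genes. On full-length coding transcripts the ratio was -0.21 for Itga9 and -0.00 for Itga2b. Without centring on the median gene the split was 16 above and 7 below, and on expected counts scaled by TMM it was 12 above and 11 below.

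**Figure D4:**
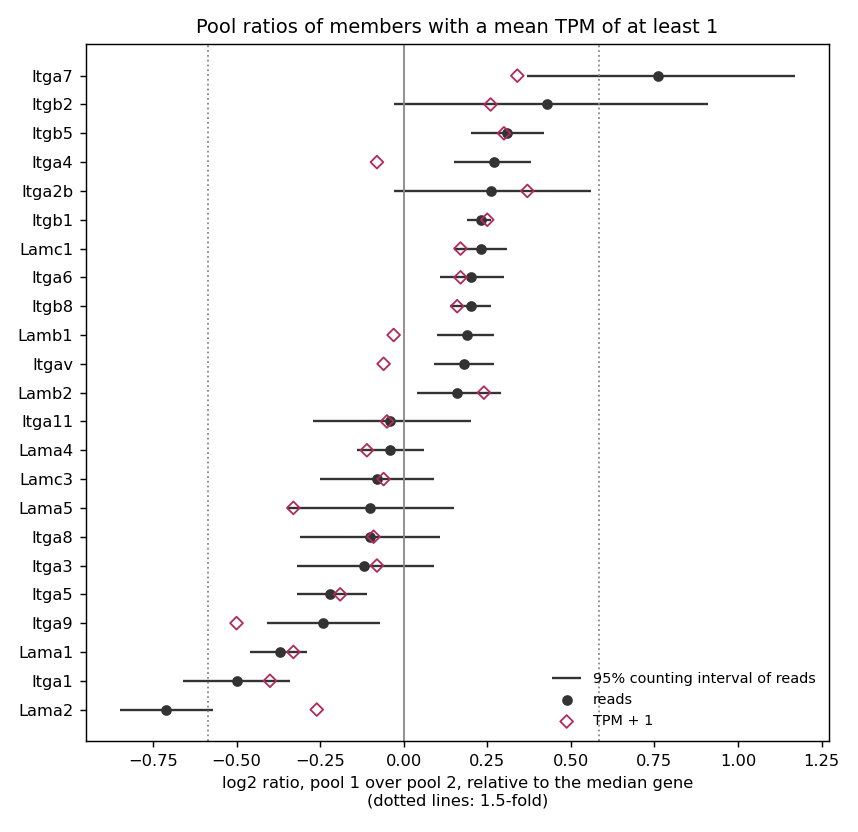
Log2 ratio of pool 1 over pool 2, relative to the median gene, for the 23 genes averaging 1 TPM or more: filled points are reads with their 95% counting interval as a line, open diamonds are TPM + 1, and dotted lines mark 1.5-fold. Itga7 and Lama2 lie past 1.5-fold by reads (0.76 and -0.71), and no gene does by TPM + 1.

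The 4 beta subunits averaging 1 TPM or more all had ratios above 0 (0.16 to 0.30), under each scaling tried. Of 13033 protein-coding genes averaging 1 TPM or more, 6819 were above 0 and 6213 below, so a sign shared by 4 genes says little. For Itgb2 the read ratio was 0.43 (-0.03 to 0.91), an interval that includes 0. Among the lower beta subunits Itgb3 had a ratio of 0.02, but Itgb4 (-0.42), Itgb6 (-0.27) and Itgb7 (-0.28) were below 0. For Itgb1, 15753 and 11823 reads gave a read ratio of 0.23 (95% counting interval 0.19 to 0.26), and for Itgb5, 1703 and 1206 reads gave 0.31 (0.20 to 0.42). The 4 laminin alpha chains averaging 1 TPM or more all had ratios below 0 (-0.33 to -0.11). For Lama4 the ratio was 0.00 on full-length coding transcripts and -0.00 without centring. For Lama5, 277 and 260.0 reads gave -0.10 (-0.35 to 0.15), an interval that includes 0. For Lama1, 2112 and 2400 reads gave -0.37 (-0.46 to -0.29). Counting intervals cover counting error only, and PCR copies are not independent molecules.

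Among the 23 genes averaging 1 TPM or more, only Lama2 and Itga7 lay past 1.5-fold by reads. On counts scaled by TMM these genes were 8.70% of the 23, against 5.49% of protein-coding genes. Some genes below that level did too. Itga2 (-0.81), Itga10 (-0.76), Itgb4 (-0.80), Itgb6 (-0.68) and Itgb7 (-1.36) were lower in pool 1, and Lamb3 (0.75) was higher. Lama2 had 726 and 1040 reads, a read ratio of -0.71 (-0.85 to -0.57), and its ratio was -0.26 by gene TPM, -0.61 on full-length coding transcripts and -0.70 on counts scaled by TMM. A retained-intron model of Lama2, of 643 nt, had 2.62 and 0.420 TPM from 41.9 and 6.47 reads, the reverse direction of the gene's reads. Beside it, the mesenchyme and meninges list was split, with 5 of 10 markers above 0 and a median ratio of -0.04, though Dcn had a ratio of -1.03. The part of these cells in the Lama2 value was not tested.

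Itga7 had 157 and 81.0 reads, a read ratio of 0.76 (0.37 to 1.17). Skeletal muscle markers summed to 97.1 and 55.3 TPM, 5 of the 7 averaging 1 TPM or more having ratios above 0 and 4 being more than 1.5-fold higher in pool 1. Of that list 6 of 8 genes were detected and none was at 0 (0.975 to 26.0 TPM), Actc1 having 36.1 and 15.8 TPM and Myog 9.21 and 3.78 TPM, whereas Ttn had a ratio of -0.06 and Mylpf of -0.00. Their part in the Itga7 value was not tested.

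Itga1 had 585 and 727 reads, a read ratio of -0.50 (-0.66 to -0.34), and its deposited TPM intervals did not overlap. In all, 8 of the 23 genes had deposited intervals that did not overlap between the pools, against 43.8% of protein-coding genes averaging 1 TPM or more: Itga6, Itga1, Itga7, Itgb1, Itgb8, Itgb5, Lama1 and Lamc1. For 10 of the 37 genes the TPM itself lay outside its own deposited interval in at least 1 pool, as for Itgb1 in pool 1 (145 TPM, interval 139.9 to 144), so these intervals are given as deposited and not used as a test.

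The genes around the receptors were described by 6 lists of 93 genes, of which 87 were detected, against 59.4% of all protein-coding genes. The lists were chosen with earlier results of these data known, so their detection counts are a description only. Of 21 extracellular ligands of integrins, 18 were detected, led by Fbln1 (a fibulin) at 90.9 and 81.7 TPM, Vtn (vitronectin, a ligand of alphav-beta5) at 72.6 and 91.1 TPM and Fn1 (fibronectin) at 58.9 and 56.9 TPM, while Tnn, a tenascin, was lowest at 0.0100 and 0.0300 TPM. All 14 basement membrane partners of laminins were detected. Among them Sparc, a collagen-binding matrix glycoprotein, had 388 and 382 TPM, Agrn, a laminin-binding proteoglycan, had 60.6 and 54.8 TPM, and Col4a1, a chain of the collagen IV network, had 56.1 and 47.2 TPM. Frem2 was lowest at 1.29 and 1.44 TPM.

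Other receptors of laminin and the enzymes that glycosylate dystroglycan were all detected (14 of 14). Rpsa, a ribosomal protein also described as a laminin receptor, had 591 and 561 TPM, Sgce, a sarcoglycan, 51.3 and 50.1 TPM, and Dag1, the gene of dystroglycan, 38.9 and 34.8 TPM. Dag1 thus had a higher level than Itga6 in each pool, 22.4 and 18.4 TPM, and Cd44 was lowest in the list at 2.80 and 2.82 TPM.

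Of 26 cytoplasmic adaptors and kinases, 24 were detected. Ilk, the integrin-linked kinase, had 219.6 and 207 TPM, Flna, an actin crosslinker that binds beta tails, had 136 and 136 TPM, and Lims1, the partner of Ilk, had 62.9 and 58.2 TPM. Parvg, the parvin of blood cells, was lowest at 0.430 and 0.420 TPM. Fermt1, the epithelial kindlin, had 1.21 and 4.06 TPM, a ratio of -1.30, and was the sole gene of this list more than 1.5-fold apart; it is named after its value was seen, as is Ntn4 in the basement membrane list at 1.71 and 2.86 TPM (-0.62).

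All 11 membrane partners and negative regulators were detected, led by the tetraspanin Cd81 at 198 and 181 TPM, Adgrg1, the adhesion receptor whose loss disturbs the pial basement membrane, at 89.6 and 72.5 TPM, and Ccm2, a scaffold of the cavernous malformation complex, at 66.9 and 61.0 TPM. Filip1l was lowest at 7.28 and 8.18 TPM. Of 7 genes of TGF-beta activation through alphav integrins, 6 were detected. Tgfb2 had 18.0 and 16.8 TPM, Nrros, which holds latent TGF-beta on myeloid cells, 6.08 and 5.90 TPM, Tgfb3 4.49 and 3.94 TPM, and Tgfb1 was below the line at 0.700 and 0.660 TPM. The medians of the 6 lists, in the order given, were 13.1, 16.0, 16.1, 10.8, 36.6 and 4.09 TPM, each above the 2.79 TPM of the integrin and laminin set and, like it, to be read against 3.85 TPM for all protein-coding genes. Their median pool ratios lay between -0.13 and 0.01.

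**Figure D5:**
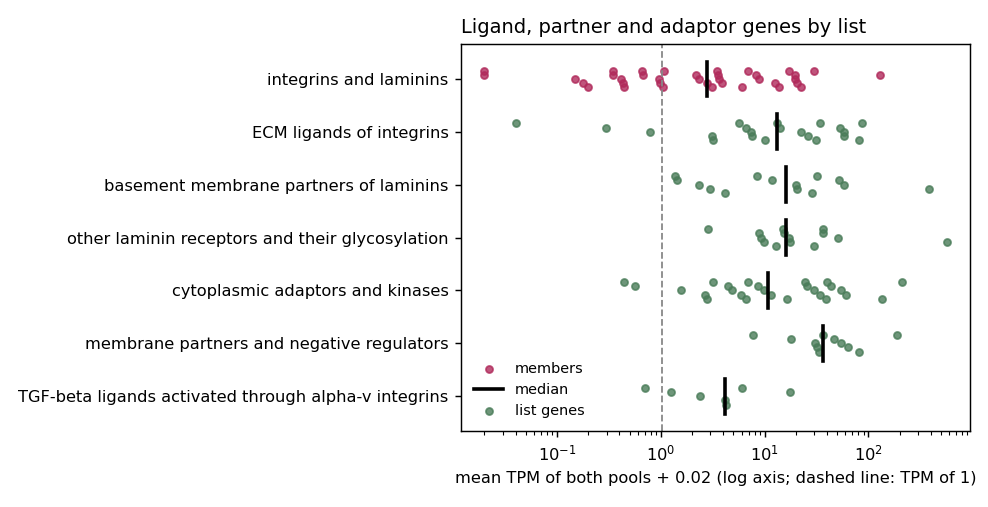
Mean TPM + 0.02 over both pools, on a log axis, of each integrin or laminin gene (top row) and of each gene in the 6 lists, with the median as a bar and a TPM of 1 as a dashed line. Medians run from 2.79 TPM for the integrin and laminin genes to 36.6 TPM for membrane partners, and Rpsa, Sparc, Ilk and Cd81 are the highest points of their rows.

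Some counts may be shared with overlapping genes on the opposite strand, since no source used here gives the strand setting, and on the same strand under any setting. Itga4 shares 1124 nt of exon with Cerkl on the opposite strand, which had 1.49 and 1.97 TPM. Itgav shares 634 nt with Gm13684 (0.130 and 0.540 TPM) and Lamc3 shares 382 nt with Gm13441 (0.400 and 0.890 TPM). Itga8 shares 372 nt with E030013I19Rik (0.280 and 0.150 TPM). Lama2 shares 631 nt with Gm48084 on the opposite strand. On the same strand, Itgam shares 3450 nt with Gm49368, Itga10 1739 nt with Gm42957 and Itga1 685 nt with Gm49395. No level was available for Gm48084, Gm49368, Gm42957 or Gm49395.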

How the data were processed

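Total RNA was measured in 2 hindbrain libraries. The authors deposited a gene and a transcript table for each; per the file headers these hold expected counts (estimated counts that need not be whole), TPM, FPKM, interval bounds around TPM of unstated level, and, per transcript, an isoform percent. The assembly was mm10 per the labels, and the annotation GENCODE M4 per the readme. For the aligner and quantifier: not given in the sources used here. TPM is relative to all deposited entries.

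Symbols and biotypes came from GENCODE vM21, matching 42462 of 43346 Ensembl identifiers. Full-length coding transcripts were protein-coding models of vM21 without an incomplete-end tag; transcripts not in vM21 were left out of them. Pool ratios used log2(TPM + 1), minus the median over genes averaging 1 TPM or more. Depth was 45340440 and 41261544 expected counts. edgeR 4.0.16 (TMM) and DESeq2 1.42.0 in R 4.3.3 scaled rounded expected counts as alternatives and gave no test; quasi-likelihood tests need groups. Other steps used Python 3.11.15, pandas 2.3.3, NumPy 2.4.6, SciPy 1.17.1 (exact Clopper-Pearson intervals, 95%) and Matplotlib 3.10.9. The ratio step was tested on simulated data.

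Integrin and laminin genes were described one by one, except that some results are not reported here; the genes named in each list were the 3 highest, the lowest and any more than 1.5-fold apart that averaged 5 TPM or more. Members and lists were chosen with earlier results of these data known. Alternatives were other thresholds, units, scalings, filters and pseudocounts, and each library alone; full-length coding transcripts were added after seeing the data.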

Additional observations from a re-analysis of the deposited data

How the results depend on the processing

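Detected genes of the set numbered 21, but 13 at a TPM of at least 5, where 35.1% of the set and 46.3% of protein-coding genes passed; from either library alone they numbered 22 to 24. Genes more than 1.5-fold apart between the pools numbered 0, but 2 with a pseudocount of 0.1 (Itga7 higher and Itga9 lower in pool 1), 2 on counts scaled by TMM or by DESeq2 (Itga7 higher, Lama2 lower) and 1 on full-length coding transcripts (Lama2 lower). These were 8.70% of the set under each of the first 3 settings and 4.76% under the last, against 6.09%, 5.49%, 5.38% and 2.89% of protein-coding genes. At a TPM of at least 5 the basement membrane list kept 9 of 14 genes and the TGF-beta list 2 of 7. On full-length coding transcripts the log2 gap was 0.09 for Itgav over Itga6, 2.59 for Itgb1 over Itgb8, 0.02 for Lama4 over Lama1, 0.87 for Lamb1 over Lamb2 and 1.27 for Lamc1 over Lamc3, the last being 2.42 with a pseudocount of 0.1. From either library alone these gaps ranged from 0.42 to 0.65, 2.42 to 2.51, 0.56 to 0.77, 0.93 to 1.20 and 2.05 to 2.28. The median share of the leading transcript over 12 genes was 64.7%, 60.7% to 67.5% from either library alone, and 95.8% among protein-coding transcripts only. Fewer transcripts enter the full-length and protein-coding sums by construction. Over values of single genes, 199 of 253 alternatives shifted from the main value by no more than the spread of the pools, and 54 shifted further. For pool ratios the allowed shift was set by the width of the counting interval of reads, whether or not the value lay inside that interval. Lama2 at -0.70 on counts scaled by TMM thus counted as moved, although its read interval was -0.85 to -0.57. Part of the 199 was fixed by construction, so the count is no measure of stability. The same ratio was reused where only the filter changed (23 alternatives without a filter and 13 at a mean TPM of at least 5). A leading share from either library alone always lies within the spread of the pools. Genes with a sole coding transcript could not change level on full-length coding transcripts. No pool ratio past 1.5-fold changed sign, as none was called, but smaller ones did in 16 of 195 alternatives over 7 genes. On counts scaled by TMM the ratio of Itga4 was 0.27 in place of -0.08, that of Lamb1 0.19 in place of -0.03 and that of Itgav 0.18 in place of -0.06, and these 3 also turned positive by DESeq2 scaling, without centring and on full-length coding transcripts. Itga3, Itga8, Itga11 and Lamc3 turned positive without centring. No paired analysis was possible because there was 1 group. Low genes are limited by depth: 3 reads stood for 0.0259 TPM of Itgax in pool 1.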
